A study of Mus musculus with 6 samples.

Results

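The 10 genes described here encode proteins of amino acid uptake into muscle and of the oxidation of branched-chain amino acids (leucine, isoleucine and valine). They were chosen by symbol: Slc7a5, Slc3a2, Slc1a5 and Slc38a2 for uptake, Bcat2 for transamination, Bckdha, Bckdhb and Dbt for the branched-chain ketoacid dehydrogenase (BCKDH) complex, and its kinase Bckdk and phosphatase Ppm1k. All 10 were found among the 24411 genes of the count table, and all 10 were among the 12892 genes that passed a filter on low counts. RNA was sequenced from a fast-twitch hindlimb muscle, the extensor digitorum longus (EDL), in 3 mAktDKO mice and 3 control floxed mice, all C57BL/6J and 50 weeks old. The mAktDKO mice (Mlc1f-Cre:Akt1/2-floxed) carried a deletion of the insulin-signaling kinases Akt1 and Akt2 aimed at skeletal muscle, with Cre driven by the myosin light-chain promoter Mlc1f, which is active in muscle fibres, and deletion in the other cells of the muscle was not measured here. The control mice carried the same floxed Akt1 and Akt2 alleles without Cre. The control mice are numbered 2, 3 and 4, as in the table.

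Leucine, isoleucine and valine are taken up by exchangers of the plasma membrane, and skeletal muscle is a main site of their first breakdown step. In the mitochondria the transaminase turns them into ketoacids, and the BCKDH complex then decarboxylates the ketoacids in the step that commits them to oxidation. The kinase phosphorylates the alpha subunit of the complex and switches it off, and the phosphatase removes the phosphate and switches it on. Leucine also signals to mTORC1, the kinase complex that drives protein synthesis downstream of Akt.

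Levels are estimated counts relative to library size (CPM), scaled between mice by the trimmed mean of M values (TMM), and a difference is the log2 fold change of mAktDKO over control. Total counts were between 13738795 and 15445523 per mouse, and 3 counts, taken as the limit of what this depth can show, correspond to 0.18 to 0.227 CPM on this scale. Akt2 was at 51.3, 49.1 and 52.7 CPM in mAktDKO mice 1, 2 and 3 and at 172.1, 133.1 and 142.6 CPM in control mice 2, 3 and 4 (log2 fold change -1.55, SE 0.11, adjusted p = 0.000923 in edgeR). Akt1 was at 51.4 to 58.9 CPM in the mAktDKO mice and at 65.5 to 66.5 CPM in the control mice (log2 fold change -0.25, adjusted p = 0.115). Akt2 transcripts thus fell and remained detectable. Akt1 transcripts lay lower in all 3 mAktDKO mice than in all 3 control mice (unadjusted p = 0.0125 in edgeR). They did not pass after adjustment, so the counts alone do not establish a loss of Akt1. The paper reports lower Akt protein in skeletal muscle of mAktDKO mice, measured at a younger age. The fast fibre markers were abundant in every mouse, with Acta1 at 19312.0 to 23149.8 CPM and Myh4 at 47021.9 to 55567.2 CPM. Control mouse 2 stood apart from the other 5 mice in the summed markers of fibro-adipogenic progenitors, the connective tissue cells of muscle (7340.6 CPM against 15809.3 to 21801.5 CPM). Most of this sum was the collagen gene Col1a1 (5898.6 CPM against 12346.2 to 18884.2 CPM). In the marker Pi16 it did not stand apart (30 CPM against 30.7 to 37.9 CPM). In bulk muscle, fewer cells of a type and less RNA per cell cannot be told apart.

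The kinase and the phosphatase act in opposite directions on the same subunit, so the stretches upstream of their start sites are shown first. They come from the RefSeq promoter table for GRCm38.p6, which had windows for 7 of the 10 genes (9 windows). Each line gives, 5′ to 3′ on the gene's own strand, the 200 bases that end 51 bases before the start site, with CpG dinucleotides in capitals. The Bckdk stretch is chr7:127903823-127904022 on the plus strand, with 4 CpG and 47.5% GC, and the Ppm1k stretch is chr6:57535538-57535737 on the minus strand, with 13 CpG and 56.5% GC. The median of such stretches over the whole promoter table was 4 CpG and 51.5% GC, so the CpG count of Bckdk equalled the median and that of Ppm1k lay above it.
Bckdk: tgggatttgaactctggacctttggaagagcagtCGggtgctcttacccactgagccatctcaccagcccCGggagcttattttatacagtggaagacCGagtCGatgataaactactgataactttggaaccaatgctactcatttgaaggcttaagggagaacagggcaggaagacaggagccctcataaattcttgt
Ppm1k: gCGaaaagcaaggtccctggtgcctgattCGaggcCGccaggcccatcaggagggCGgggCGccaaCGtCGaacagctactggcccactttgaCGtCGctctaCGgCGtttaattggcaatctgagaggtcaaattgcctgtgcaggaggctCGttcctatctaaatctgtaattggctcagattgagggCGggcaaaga

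The 9 windows of 300 bases (250 before to 50 after the start site) were searched on both strands for 4 motifs. The letters AAGGTCA, bound by the nuclear receptor Esrra, occurred in 4.72% of the 32851 windows of the table. The FoxO letters GTAAACA occurred in 3.65%, the letters TGATGNAA of the C/EBP-ATF element in 3.97%, and the E-box CACGTG in 7.15%. None of the 4 occurred in any of the 9 windows, which says only that these letters are not in these stretches.

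None of the 10 genes passed the study's threshold (adjusted p under 0.01), which called 0.0233% of all genes tested with the quasi-likelihood test of edgeR. None passed at adjusted p under 0.05 either, where 1.18% of all genes were called (0.264% higher and 0.915% lower). At an unadjusted p under 0.05 there were 4 of the 10 genes, Slc7a5 and Slc1a5 higher and Bckdha and Bckdk lower in the mAktDKO mice, against 24.5% of all genes tested. Scaling the libraries by their totals raised the median of all genes from 0.017 to 0.16, and 8 of the 10 genes were then higher. At an unadjusted p under 0.05, 3 of the 10 were then higher and 1 lower. With that scaling 2969 of all genes were higher and 647 lower at this threshold (82.1% higher). DESeq2 called none of the 10 at adjusted p under 0.01, where it called 2.56% of all genes. It called 2 of the 10 at adjusted p under 0.05 (Bckdk lower and Slc1a5 higher), where it called 6.1% of all genes. The shares of all genes include 3502 genes to which DESeq2 gave no adjusted p, while each of the 10 had one. At adjusted p under 0.05, limma-voom called none of the 10. The levels of the mAktDKO and control mice did not overlap in 3 of the 10 genes (Slc7a5, Bckdha and Bckdk), against 31.1% of all genes tested. The median log2 fold change was -0.015 over the 10 genes and 0.017 over all genes tested, with 5 of the 10 higher and 5 lower. Leaving out 1 mouse changed the sign of the median of the 10, which was 0.06 without control mouse 2 and 0.078 without control mouse 3.

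**Figure D1:**
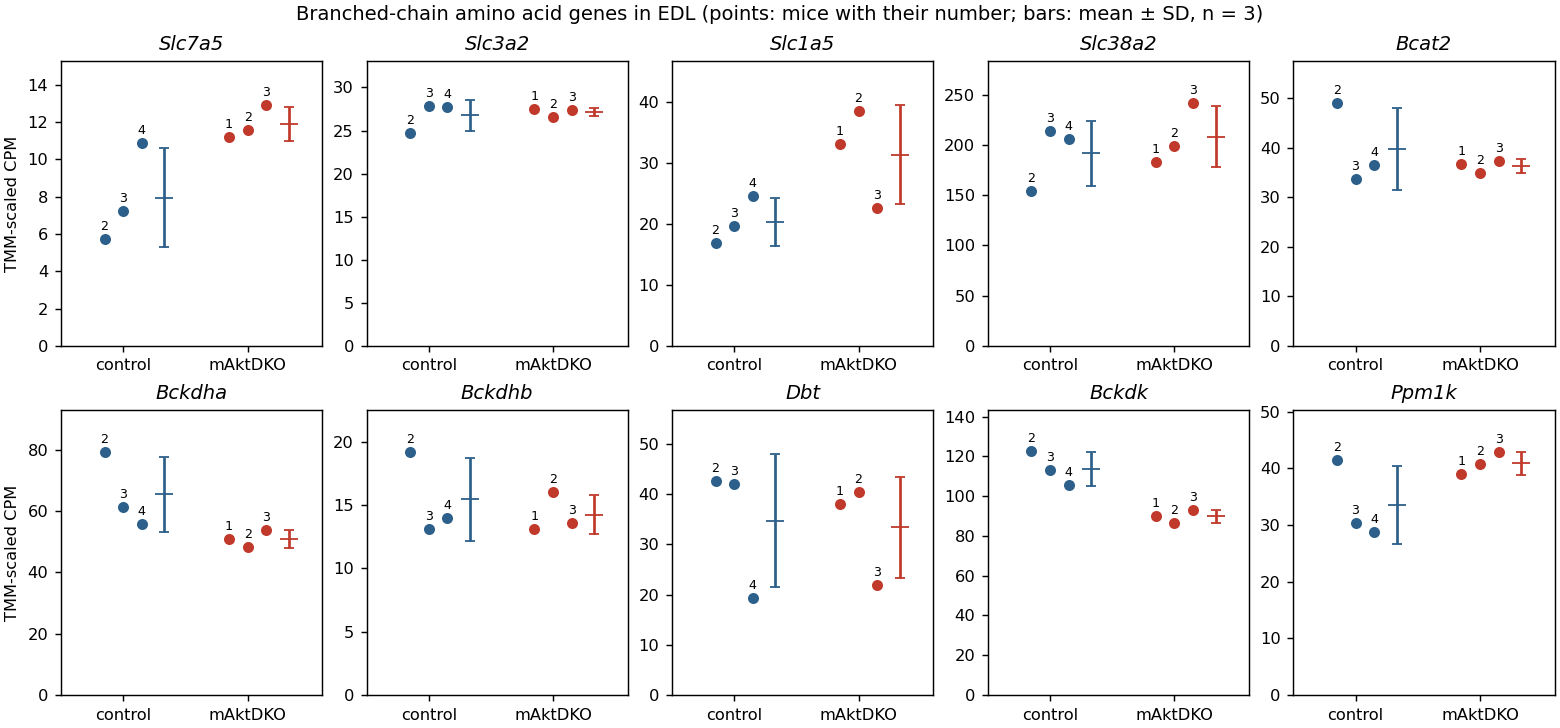
Level of each of the 10 genes in every mouse (y axis, TMM-scaled CPM from 0; x axis, group; points are mice with their number, bars are mean ± SD of 3 mice). Slc7a5 lay higher and Bckdha and Bckdk lower in all 3 mAktDKO mice than in all 3 control mice, the other 7 genes overlapped, and control mouse 2 was the lowest control in the 4 transporter genes and the highest in the 6 enzyme genes.

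Per kilobase of the principal transcript in GENCODE, Slc38a2 had the highest mean level of the 10 genes in both groups (44.7 CPM per kb in mAktDKO and 41.2 in control mice). Its range in the control mice (33.2 to 46.0) overlapped those of the next 2 genes, and in the mAktDKO mice (39.3 to 52.0) it did not. Bckdha followed in the control mice at 34.4 CPM per kb (29.3 to 41.7) and Bckdk at 33.4 (31.0 to 36.0), with overlapping ranges. In the mAktDKO mice they were at 26.9 (25.3 to 28.4) and 26.3 (25.3 to 27.3) CPM per kb, again overlapping. Bcat2 (20.5 in mAktDKO and 22.4 in control mice) and Slc3a2 (15 and 14.7) were next. Slc1a5 (11.4 and 7.38), Dbt (10.1 and 10.5), Bckdhb (9.65 and 10.5) and Ppm1k (7.36 and 6.03) lay close together. Slc7a5 was the lowest, at 3.38 CPM per kb in mAktDKO and 2.26 in control mice. The chain that carries leucine was therefore the scarcest transcript of the 10 per length in both groups, below its partner chain Slc3a2.

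Of the transporter genes, Slc7a5 lay higher in the mAktDKO mice. It encodes the light chain that exchanges leucine and other large neutral amino acids across the membrane (GRCm38 chr8:121881150-121907694, minus strand). Its level was 11.2, 11.6 and 12.9 CPM in mAktDKO mice 1, 2 and 3 and 5.73, 7.22 and 10.9 CPM in control mice 2, 3 and 4. All mAktDKO mice lay above all control mice, although control mouse 4 was close to mAktDKO mouse 1. The log2 fold change was 0.58 (SE 0.21, 95% interval 0.11 to 1.06), with an adjusted p of 0.141 in edgeR and 0.086 in DESeq2. Without control mouse 4 it was 0.87 with an adjusted p of 0.0376 in edgeR, so that mouse decided the call at 0.05. Without control mouse 2 it was 0.39 (adjusted p = 0.258). The opposite strand at this locus also carries the annotated gene Gm20388. Bckdha overlaps B3gnt8 in the same way, Ppm1k Gm45193, Bcat2 0610005C13Rik, Bckdhb Gm46124 and Dbt Gm4596, while Gm43651 overlaps Dbt on its own strand. The strand setting of the counting is not given in the sources used here, so reads of these genes and their partners may not have been told apart.

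Slc3a2 encodes the heavy chain that anchors the light chain in the membrane (chr19:8706882-8723369, minus strand). It was at 27.5, 26.6 and 27.4 CPM in the mAktDKO mice and at 24.7, 27.9 and 27.7 CPM in the control mice. These levels overlapped, and the 95% interval of the log2 fold change was -0.18 to 0.22 around 0.021 (adjusted p = 0.902). Within each mouse, the ratio of Slc7a5 to Slc3a2 counts was 0.406, 0.437 and 0.471 in mAktDKO and 0.232, 0.259 and 0.392 in control mice. The ratio was thus higher in 3 of 3 mAktDKO mice (log2 difference 0.61), with a 2-sided exact permutation p of 0.1, the smallest that 3 mice against 3 can give. This ratio does not depend on how the libraries were scaled to each other.

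Slc1a5 encodes the exchanger of glutamine and other neutral amino acids (chr7:16781340-16798274, plus strand). Its level was 33.1, 38.5 and 22.6 CPM in mAktDKO mice 1, 2 and 3 and 16.8, 19.7 and 24.6 CPM in control mice 2, 3 and 4. The groups overlapped, because mAktDKO mouse 3 lay below control mouse 4. The log2 fold change was 0.63 (SE 0.20, 95% interval 0.17 to 1.08), close to that of Slc7a5. It did not pass in edgeR (adjusted p = 0.115) and passed at 0.05 in DESeq2 (adjusted p = 0.0251).

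The order of the mice in Slc1a5 was set beside marker genes of other cells. The 6 adipocyte markers, all higher in mean in the mAktDKO mice, summed to 139.2, 164.9 and 55.2 CPM in mAktDKO mice 1, 2 and 3 and to 54.5, 41.9 and 92.2 CPM in control mice 2, 3 and 4. Both Slc1a5 and this sum were highest in mAktDKO mouse 2, then in mAktDKO mouse 1 and then in control mouse 4. None of the 6 markers was at 0 in all mice, and Adipoq ranged from 5.69 to 21.9 CPM in the mAktDKO mice and from 4.60 to 9.53 CPM in the control mice. The 8 slow fibre markers summed to 1135.1, 1328.5 and 691.8 CPM in the mAktDKO mice and to 647.5, 894.5 and 616.6 CPM in the control mice, and were also highest in mAktDKO mice 1 and 2, but lowest in control mouse 4. The sums for tenocytes (1704.2 CPM) and fibro-adipogenic progenitors (21801.5 CPM) had another order and were highest in mAktDKO mouse 3, where Slc1a5 was low. The 6 Schwann cell markers, all 6 higher in mean in the mAktDKO mice, summed to 562.3, 499.2 and 427.1 CPM in mAktDKO mice 1, 2 and 3 and to 372.8, 408.6 and 449.6 CPM in control mice 2, 3 and 4, the order of Slc1a5 but for the first 2 mice. The 5 erythroid markers summed to 149.8 to 320.1 CPM in the mAktDKO mice and to 113.9 to 167.7 CPM in the control mice, highest in mAktDKO mice 1 and 2. The part of these cells in the Slc1a5 result was not tested.

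**Figure D2:**
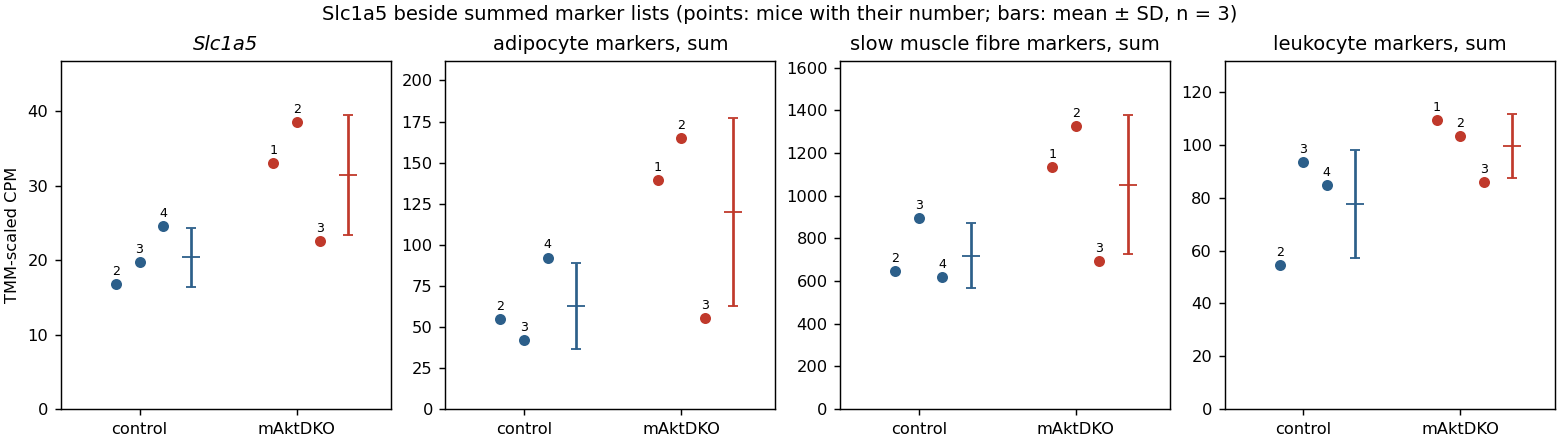
Level of Slc1a5 and summed levels of marker genes of adipocytes, slow fibres and leukocytes in every mouse (y axes, TMM-scaled CPM from 0; points are mice with their number, bars are mean ± SD of 3 mice). mAktDKO mice 1 and 2 were the highest 2 of the 6 mice in all 4 panels, and mAktDKO mouse 3 lay within the range of the control mice.

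Slc7a5 followed another order, with mAktDKO mouse 3 at the highest level. The 9 macrophage and leukocyte markers (none at 0 in all mice) summed to 109.3, 103.6 and 86.1 CPM in the mAktDKO mice and to 54.5, 93.5 and 84.8 CPM in the control mice, and the 10 endothelial markers to 522.0 to 629.9 and 452.4 to 588.6 CPM. The lowest leukocyte sum and the lowest Slc7a5 level were both in control mouse 2. Within the mAktDKO mice the leukocyte sum was lowest in mouse 3, where Slc7a5 was highest. The 7 markers of fibro-adipogenic progenitors summed to 18353.3 to 21801.5 CPM in the mAktDKO mice and to 7340.6 to 18465.5 CPM in the control mice, with control mouse 2 lowest again. The 5 tenocyte markers, all higher in mean in the mAktDKO mice (median log2 fold change 0.59), summed to 1176.1, 1399.9 and 1704.2 CPM in mAktDKO mice 1, 2 and 3 and to 1037.1, 899.9 and 1202.9 CPM in control mice 2, 3 and 4. Their sum had the order of Slc7a5 within the mAktDKO mice and was likewise highest among the controls in mouse 4, and none of the 5 was at 0. Fmod, which made up most of the sum, Thbs4 and Mkx had this order within the mAktDKO mice. Tnmd (72.7, 65.7 and 76.1 CPM in mAktDKO mice 1, 2 and 3) and Scx (11.1, 10.2 and 10.1 CPM) did not. The part of these cells in the Slc7a5 result was not tested.

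Slc38a2 encodes a sodium-coupled carrier of small neutral amino acids that also supplies glutamine (chr15:96687392-96699730, minus strand). It was at 183.3, 199.4 and 242.3 CPM in the mAktDKO mice and at 154.7, 214.4 and 206.4 CPM in the control mice. The levels overlapped, and the log2 fold change was 0.12 with a 95% interval of -0.21 to 0.45 (adjusted p = 0.632).

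Of the 26 other amino acid transporter genes listed, 23 were tested, of which 18 lay higher and 5 lower in the mAktDKO mice, and the median log2 fold change was 0.25 against 0.017 over all genes tested. Without control mouse 2 that median was 0.14. Markers of other cells lay higher as well, with a median log2 fold change of 1.02 for adipocytes, 0.59 for tenocytes, 0.48 for leukocytes and 0.31 for fibro-adipogenic progenitors, and their part in this shift was not tested. None of the 23 passed at adjusted p under 0.05 in edgeR, and 6 had an unadjusted p under 0.05, all 6 higher, where 11.4% of all genes tested were. The groups did not overlap in 5 genes that were higher and 2 that were lower, against 14.6% and 16.6% of all genes tested. DESeq2 called 2 of the 23 at adjusted p under 0.05, both higher, where it called 6.1% of all genes in either direction, and gave 7 of the 23 no adjusted p. Slc38a4, a relative of Slc38a2, was at 123.8, 122.3 and 130.9 CPM in the mAktDKO mice and at 79.5, 102.6 and 96.7 CPM in the control mice. Its difference was 0.44 on the log2 scale (adjusted p = 0.0635 in edgeR, 0.0492 there with library totals, and 0.00898 in DESeq2), and the groups did not overlap. Slc38a1, a glutamine carrier of the same family, showed a log2 fold change of 0.86 (5.82 to 6.27 CPM in control mice 4 and 3, 2.87 CPM in control mouse 2 and 8.33 to 9.53 CPM in the mAktDKO mice), with an adjusted p of 0.0943 in edgeR and 0.0216 in DESeq2. Without control mouse 2 it was 0.57. Slc7a11, the cystine exchanger that shares the heavy chain Slc3a2, was at 11.6, 17.1 and 26.2 CPM in the mAktDKO mice and at 2.03, 7.08 and 10.5 CPM in the control mice (log2 fold change 1.49, adjusted p = 0.108), in the order of the tenocyte sum within the mAktDKO mice. Slc43a2, which lets large neutral amino acids pass by facilitated diffusion, showed a log2 fold change of 0.25 (adjusted p = 0.127), with 45.5 to 46.5 CPM in the mAktDKO mice and at 35.9 to 41.9 CPM in the control mice.

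Bcat2 encodes the mitochondrial transaminase, the main form in muscle (chr7:45570153-45589711, plus strand). It was at 36.8, 34.8 and 37.4 CPM in the mAktDKO mice and at 49.1, 33.6 and 36.5 CPM in the control mice. Apart from control mouse 2, which was high, the levels were close together, and the 95% interval of the log2 fold change was -0.44 to 0.18 around -0.13 (adjusted p = 0.573). Bcat1 encodes the cytosolic transaminase, which muscle fibres express little. It was at 6.53, 5.69 and 6.72 CPM in the mAktDKO mice and at 1.05, 3.21 and 3.70 CPM in the control mice, all 3 mAktDKO mice above all 3 control mice. Bcat1 thus had a log2 fold change of 1.26 (SE 0.35, 95% interval 0.47 to 2.04), with an adjusted p of 0.0853. Per kilobase, Bcat1 lay at 2.47 CPM in mAktDKO and 1.04 CPM in control mice, below Bcat2 in both groups. The lowest Bcat1 level was in control mouse 2, as were the lowest sums of leukocyte and of fibro-adipogenic progenitor markers. The fibro-adipogenic sum had the order of Bcat1 within each group. This sum was 21466.2, 18353.3 and 21801.5 CPM in mAktDKO mice 1, 2 and 3. In control mice 2, 3 and 4 it was 7340.6, 15809.3 and 18465.5 CPM. Most of this sum was the collagen gene Col1a1, which had the order of Bcat1 within each group. Pdgfra (86, 87.9 and 79.3 CPM in mAktDKO mice 1, 2 and 3) and Pi16 (34.9, 37.4 and 30.7 CPM) did not have it. The leukocyte sum did not have that order, and within the mAktDKO mice it was lowest in mouse 3 (86.1 CPM), where Bcat1 was highest. The part of these cells in the Bcat1 result was not tested.

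Of the subunits of the BCKDH complex, Bckdha lay lower in the mAktDKO mice, and the levels of Bckdhb and Dbt overlapped between the groups. Bckdha encodes the alpha subunit of the decarboxylase, which carries the site the kinase phosphorylates (chr7:25629946-25658981, minus strand). Its level was 50.9, 48.1 and 53.9 CPM in the mAktDKO mice and at 79.2, 61.4 and 55.6 CPM in the control mice. All mAktDKO mice lay below all control mice, with mAktDKO mouse 3 and control mouse 4 close to each other. The log2 fold change was -0.36 (SE 0.13, 95% interval -0.65 to -0.071), with an adjusted p of 0.14 in edgeR and 0.0862 in DESeq2. Without control mouse 2 it was -0.20. With library totals it was -0.22, or -0.38 relative to the median of all genes.

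Bckdhb encodes the beta subunit of the decarboxylase (chr9:83925145-84124240, plus strand). It was at 13.1, 16 and 13.6 CPM in the mAktDKO mice and at 19.2, 13.1 and 14 CPM in the control mice, with overlapping groups (log2 fold change -0.12, 95% interval -0.47 to 0.24, adjusted p = 0.674). The alpha and beta subunits form the decarboxylase in equal numbers. Within each mouse the ratio of Bckdha to Bckdhb counts was 3.89, 3.01 and 3.95 in mAktDKO and 4.14, 4.67 and 3.98 in control mice, lower in 3 of 3 mAktDKO mice by a narrow gap (log2 difference -0.24, exact permutation p = 0.1). Without mAktDKO mouse 2 the difference was -0.12.

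Dbt encodes the core subunit that passes the acyl group on to coenzyme A (chr3:116513070-116549981, plus strand). It was at 38.0, 40.4 and 21.9 CPM in mAktDKO mice 1, 2 and 3 and at 42.6, 42.0 and 19.4 CPM in control mice 2, 3 and 4. One mouse of each group, mAktDKO mouse 3 and control mouse 4, thus lay far below the other 4, and the groups overlapped (log2 fold change -0.051, 95% interval -0.74 to 0.64, adjusted p = 0.933). The lowest count behind these levels was 256, in control mouse 4. Among the 10 genes, the standard error of Dbt (0.30) was the largest, and a genotype difference of the size seen in Bckdha or Bckdk could not have been separated from this spread.

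The division of the mice in Dbt was compared with that of all other genes, a comparison chosen after its values were seen. Of the 12892 genes tested, 18 had the lower levels in the same 2 mice with a gap of at least 1.5-fold to the other 4. Of the 11253 genes with at least 20 counts in every mouse, Dbt and Wdfy1 did. Wdfy1, on chromosome 1, was at 15.5, 14.8 and 7.2 CPM in the mAktDKO mice and at 15, 16.2 and 5.9 CPM in the control mice. The genes on either side of Dbt did not divide the mice in this way. Rtca, 4.86 kb upstream, was at 11 to 12.8 CPM and at 12.3 to 15.2 CPM in the mAktDKO and control mice, and Lrrc39, 13 kb downstream, at 51.6 to 65.3 and at 61.2 to 68.0 CPM.

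**Figure D3:**
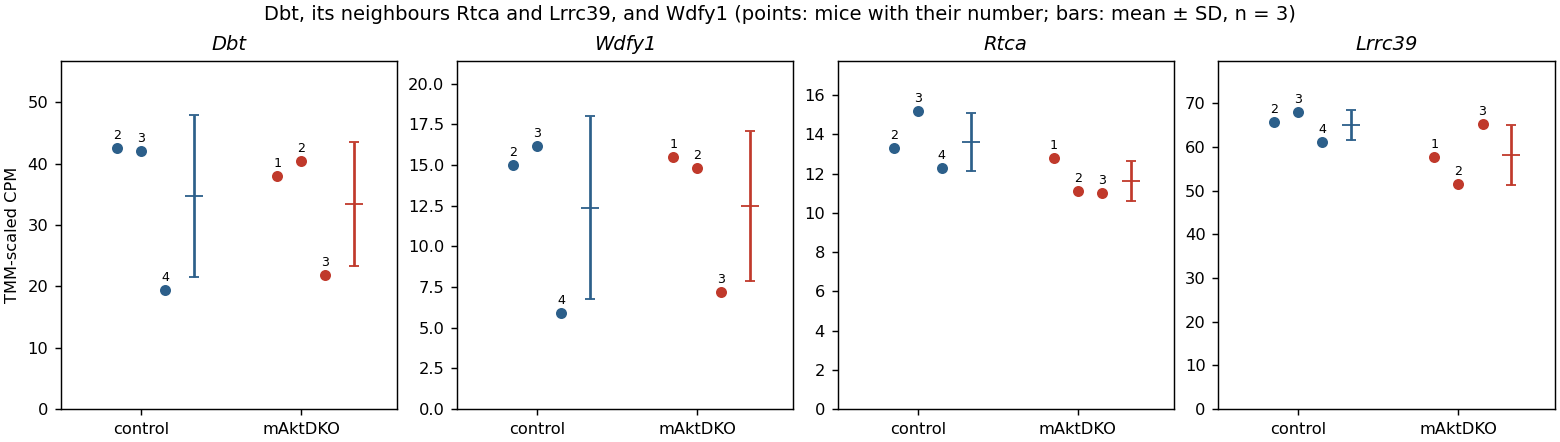
Levels of Dbt, Wdfy1 and the neighbours of Dbt, Rtca and Lrrc39, in every mouse (y axes, TMM-scaled CPM from 0; points are mice with their number, bars are mean ± SD of 3 mice). mAktDKO mouse 3 and control mouse 4 lay low in Dbt (21.9 and 19.4 CPM) and Wdfy1 (7.2 and 5.9 CPM), and in neither neighbour did these 2 mice stand apart from the other 4.

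The kinase Bckdk had the smallest p of the 10 genes. It lies at chr7:127904082-127910221 on the plus strand, just downstream of the stretch printed above. Its level was 90.0, 86.3 and 93.0 CPM in mAktDKO mice 1, 2 and 3 and 122.7, 113.1 and 105.5 CPM in control mice 2, 3 and 4. The highest mAktDKO mouse lay below the lowest control mouse. The log2 fold change was -0.34 (SE 0.083, 95% interval -0.53 to -0.15), with an unadjusted p of 0.0026 that ranked it 488 among all genes tested. It did not pass in edgeR (adjusted p = 0.0684) and passed at 0.05 in DESeq2 (adjusted p = 0.0241). When each mouse was left out in turn, its log2 fold change stayed between -0.40 and -0.29. With library totals it was -0.20, or -0.36 relative to the median of all genes.

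The phosphatase Ppm1k, which opposes the kinase, was at 39.0, 40.7 and 42.9 CPM in the mAktDKO mice and at 41.5, 30.3 and 28.8 CPM in the control mice (chr6:57506502-57535468, minus strand). Control mouse 2 lay among the mAktDKO mice, and the other 2 control mice lay below them. Its difference was 0.28 on the log2 scale (SE 0.14, 95% interval -0.024 to 0.59, adjusted p = 0.233). Without control mouse 2 it was 0.47 with an adjusted p of 0.0443 in edgeR, so that mouse decided the call at 0.05. Without control mouse 4 it was 0.18.

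Within each mouse, Bckdk counts were 2.31, 2.12 and 2.17 times those of Ppm1k in mAktDKO mice 1, 2 and 3 and 2.95, 3.73 and 3.66 times in control mice 2, 3 and 4. The ratio was lower in 3 of 3 mAktDKO mice, at 0.64 of the control ratio (log2 difference -0.64), with an exact permutation p of 0.1 (0.167 after Benjamini-Hochberg adjustment over the 5 ratios). It stayed between -0.75 and -0.58 when each mouse was left out, control mouse 2 included. The ratio of Bckdk to its substrate subunit Bckdha was 1.77, 1.79 and 1.73 in the mAktDKO mice and 1.55, 1.84 and 1.90 in the control mice, so the groups overlapped (log2 difference 0.0052, exact permutation p = 1). The ratio of Dbt to Bckdha followed the division in Dbt (log2 difference 0.33, exact permutation p = 0.5), from 0.063 without control mouse 4 to 0.65 without mAktDKO mouse 3. These are ratios of transcript counts and not of protein or of phosphorylation.

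**Figure D4:**
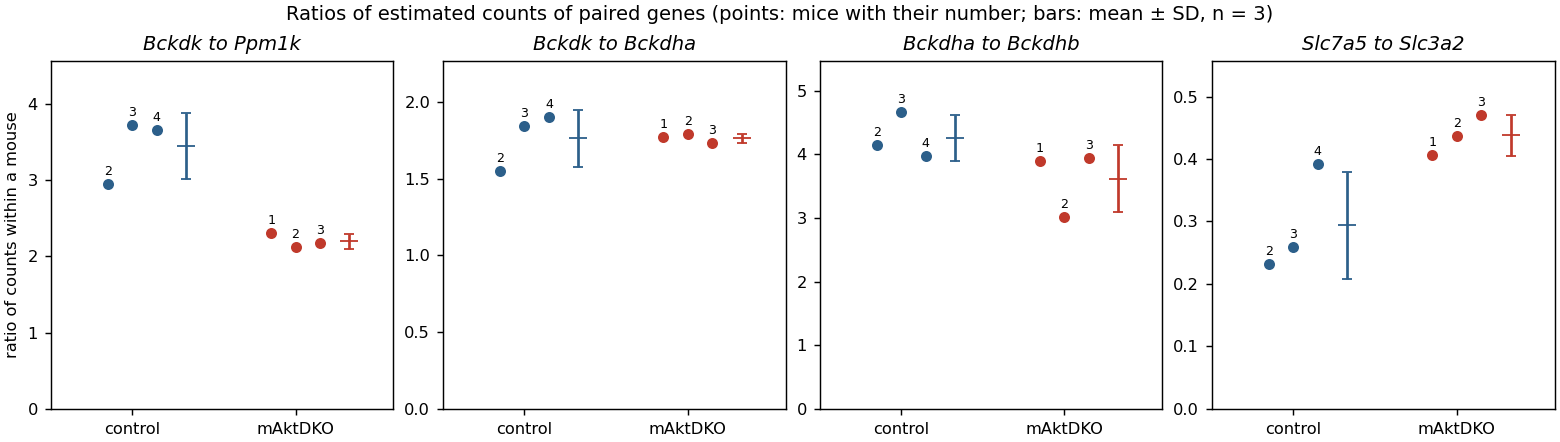
Ratios of the counts of paired genes within each mouse (y axes, ratio from 0; points are mice with their number, bars are mean ± SD of 3 mice). Bckdk to Ppm1k lay at 2.12 to 2.31 in the mAktDKO mice and at 2.95 to 3.73 in the control mice, and Bckdk to Bckdha overlapped between the groups.

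The summed level of the 12 fast fibre markers was 145346.6, 138672.0 and 154164.5 CPM in the mAktDKO mice and at 168257.3, 171170.7 and 161286.9 CPM in the control mice. All 12 markers were lower in the mAktDKO mice, and the median log2 fold change was -0.22 against -0.36 for Bckdha and -0.34 for Bckdk, and none was at 0. None of the 12 passed at adjusted p under 0.05 in edgeR, 5 were lower at an unadjusted p under 0.05, where 13.1% of all genes tested were, and DESeq2 called 5 at 0.05, where it called 6.1%. Ckm, the muscle creatine kinase, showed a log2 fold change of -0.22, Acta1 of -0.18 and Myh4, the fastest myosin heavy chain, of -0.018. Of the 12 markers, 5 had a more negative value than Bckdha and Bckdk, and they are named here after their values were seen: Tnni2 (-0.59), Myh1 (-0.51), Tnnc2 (-0.48), Pvalb (-0.41) and Myl1 (-0.39), with adjusted p between 0.0539 and 0.0966 in edgeR. Mlc1f, whose promoter drives the knocked-in Cre, is a product of Myl1, and the control mice lack this change at that gene. Its part in the Myl1 value was not tested. The part of the fast fibres in the results on Bckdha and Bckdk was not tested.

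Bckdha and Slc1a5 share chromosome 7 with the floxed Akt2 locus (chr7:27591552-27640826), at a distance of 1.93 Mb and 10.8 Mb, and Bcat2 lies 17.9 Mb from it. Bckdk lies on the far side of the same chromosome. Of the 142 genes tested within 5 Mb of Akt2, 25 (17.6%) were lower at an unadjusted p under 0.05, the direction of Bckdha, against 165 of 923 (17.9%) on chromosome 7 and 13% of all genes placed on the genome. In either direction, 21.8% of the 142 had an unadjusted p under 0.05, against 27.1% of those on chromosome 7 and 24.5% of all placed genes. Of the 147 placed genes called at adjusted p under 0.05 in edgeR, 16 lay on chromosome 7, and none of the 142 was called. The hemoglobin gene Hbb-bs, on the same chromosome between Akt2 and Bckdk and named here after its values were seen, was listed at 370, 154 and 146 counts in the mAktDKO mice and at 0 in all 3 control mice (adjusted p = 0.018 in edgeR), and it has near-identical copies between which reads may be split. The part of the position on chromosome 7 in the results on Bckdha, Bckdk and Slc1a5 was not tested.

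Downstream of the BCKDH complex, each ketoacid runs through its own branch. Of 20 genes for the carrier, the shared subunit Dld, Bcat1 and these branches, 15 lay lower and 5 higher in the mAktDKO mice, and the median log2 fold change was -0.14. None of the 20 passed at adjusted p under 0.05 in edgeR, nor did any of those to which DESeq2 gave an adjusted p, which leaves out Bcat1 (unadjusted p = 0.000222 in DESeq2). In edgeR, 1 had an unadjusted p under 0.05 in the higher direction (Bcat1) and 2 in the lower direction (Acad8 and Mccc1), where 11.4% and 13.1% of all genes tested did. The groups did not overlap in 3 genes that were higher and 7 that were lower, against 14.6% and 16.6% of all genes tested. The 12 fast fibre markers also lay lower (median log2 fold change -0.22), and their part in the shift of the 20 genes was not tested. Without control mouse 2 the median of the 20 genes was -0.087. When the libraries were scaled by their total counts in place of TMM, the median of these genes was 0.0026 and that of all genes tested was 0.16, so the place of the list below all genes remained and its sign did not.

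In the leucine branch, Mccc1, the biotin-bearing subunit of methylcrotonyl-CoA carboxylase, was at 30.1 to 31.3 CPM in the mAktDKO mice and at 33.7 to 36.2 CPM in the control mice (log2 fold change -0.19, adjusted p = 0.178). Ivd, the first dehydrogenase of the branch, showed a log2 fold change of -0.016, with a 95% interval of -0.23 to 0.20. In the valine branch, Acad8, the dehydrogenase of isobutyryl-CoA, was at 25.4 to 28.2 CPM in the mAktDKO mice and at 29.7 to 34.0 CPM in the control mice (log2 fold change -0.30, adjusted p = 0.108). The last enzymes of the same branch had values of the other sign. Hibadh showed a log2 fold change of 0.17 (adjusted p = 0.22) and Aldh6a1 of 0.22 (adjusted p = 0.215, and 0.12 without mAktDKO mouse 3), and in both genes all 3 mAktDKO mice lay above all 3 control mice.

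In the isoleucine branch, Acadsb, its first dehydrogenase, showed a log2 fold change of 0.16 (adjusted p = 0.345) and Acat1, the thiolase at its end, of -0.21 (adjusted p = 0.291). Without mAktDKO mouse 3 the value of Acadsb was 0.055, and without control mouse 2 that of Acat1 was -0.079. The enzymes that carry propionyl-CoA from valine and isoleucine into the citric acid cycle were Pcca (-0.18), Pccb (-0.14), Mcee (-0.27) and Mut (0.022), with adjusted p between 0.215 and 0.885, and Mcee was at -0.17 without mAktDKO mouse 1. The groups did not overlap in Pcca, Pccb and Mcee, all lower in the mAktDKO mice. Slc25a44, the mitochondrial carrier of branched-chain amino acids, showed a log2 fold change of -0.022 (95% interval -0.28 to 0.23), and Dld, which the BCKDH complex shares with the related complexes, of -0.071 (95% interval -0.26 to 0.12, and -0.0056 without control mouse 3).

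**Figure D5:**
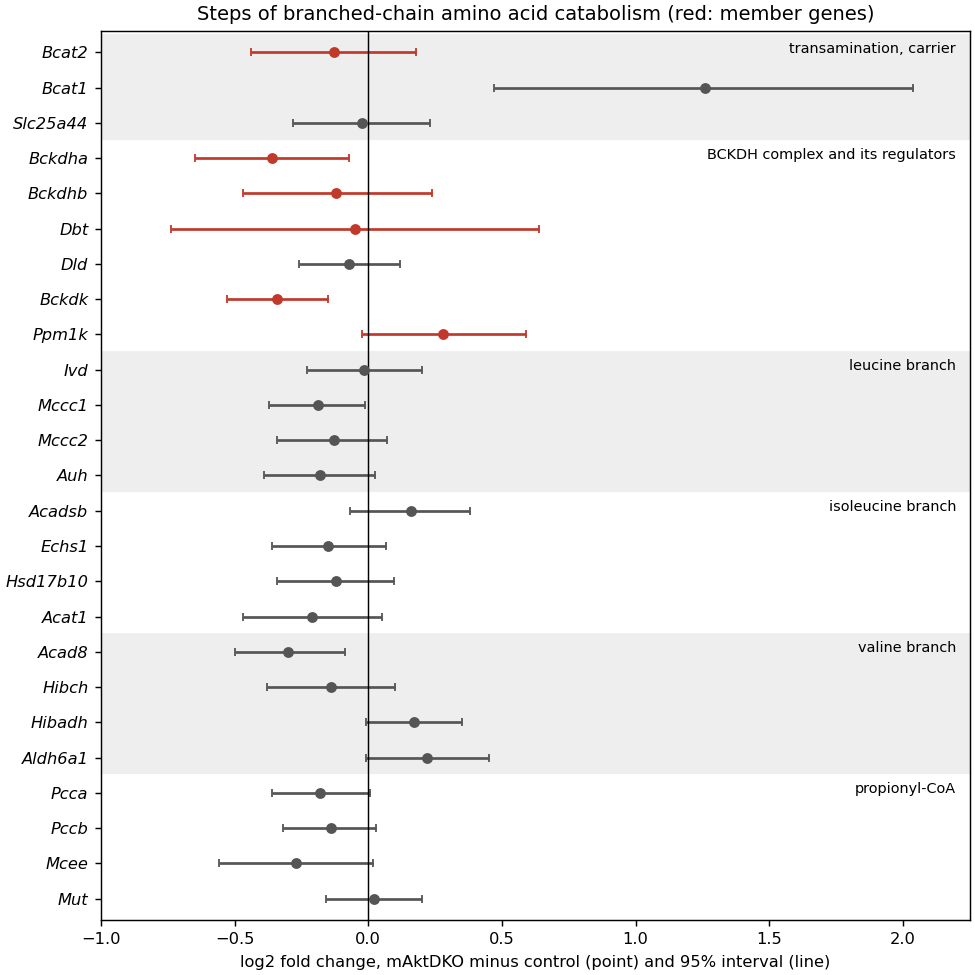
Log2 fold change of genes of branched-chain amino acid catabolism (x axis, mAktDKO minus control; points are estimates, lines are 95% intervals; y axis, genes by step, the described genes in red). The intervals of Bckdha, Bckdk, Mccc1 and Acad8 lay below 0 and that of Bcat1 above it, and the interval of Dbt (-0.74 to 0.64) was the widest among the subunits of the complex.

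The pyruvate and oxoglutarate dehydrogenase complexes are built like the BCKDH complex, and the pyruvate dehydrogenase complex also has kinases and phosphatases of its own. For these complexes and a further related one, 14 genes were listed, regulators included. Of these, 9 lay lower and 5 higher in the mAktDKO mice, and the median log2 fold change was -0.18. At an unadjusted p under 0.05 in edgeR, 5 of the 14 were lower and none higher, where 13.1% and 11.4% of all genes tested were. In 6 of the 14 the groups did not overlap, all lower, against 16.6% of all genes tested. At adjusted p under 0.05, 1 was called, lower, where 0.915% of all genes were called lower. It was Pdhx, the subunit that binds Dld to the pyruvate dehydrogenase complex, at 58.1, 56.3 and 56.9 CPM in the mAktDKO mice and at 76.1, 85.4 and 75.5 CPM in the control mice. It fell by 0.47 on the log2 scale (adjusted p = 0.0432). Pdpr, the regulatory subunit of the pyruvate dehydrogenase phosphatase, showed a log2 fold change of -0.41 (adjusted p = 0.0626 in edgeR and 0.00999 in DESeq2), Dlst of -0.26 (adjusted p = 0.115) and Pdhb of -0.25 (adjusted p = 0.121), and in none of these 3 genes did the groups overlap. These genes are listed for their likeness to the BCKDH complex, and a difference between the complexes was not tested. The 12 fast fibre markers also lay lower (median log2 fold change -0.22), and their part in this list was not tested.

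Of 10 genes for transcriptional regulators linked to amino acid metabolism, 2 passed at adjusted p under 0.05, where 1.18% of all genes were called. Myc rose from 4.12, 5.33 and 4.99 CPM in the control mice to 9.19, 8.45 and 8.71 CPM in the mAktDKO mice (log2 fold change 0.87, adjusted p = 0.0396). Esrra, a nuclear receptor of mitochondrial genes, fell from 86.2, 72.6 and 68.7 CPM to 53.1, 47.0 and 46.0 CPM (log2 fold change -0.64, adjusted p = 0.0396). Its coactivator Ppargc1b showed a log2 fold change of -0.43 (adjusted p = 0.0598 in edgeR and 0.0385 in DESeq2). The calls of Pdhx, Myc and Esrra at 0.05 were lost without any 1 of the 3 mAktDKO mice or without control mouse 3, with an adjusted p in edgeR of up to 0.22 for Pdhx and Esrra and 0.198 for Myc. Their log2 fold changes stayed at -0.50 to -0.41 for Pdhx, -0.71 to -0.54 for Esrra and 0.77 to 0.95 for Myc, and DESeq2 called all 3 (adjusted p = 0.00142, 8.42e-05 and 0.00405). Klf15, a glucocorticoid-responsive factor known to act on Bcat2 and named here after its values were seen, was at 31.1, 30.2 and 39.6 CPM in the mAktDKO mice and at 48.5, 33.3 and 35.4 CPM in the control mice (log2 fold change -0.22, adjusted p = 0.419, and -0.032 without control mouse 2).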

How the data were processed

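EDL of 3 mAktDKO and 3 control floxed mice was analysed. The authors sequenced directional libraries, mapped the reads to mm10 with STAR 2.6.1b and estimated gene counts with RSEM 1.3.1, per the submitters' processing notes. The deposited table gives the expected counts of RSEM, unscaled between mice, of which 3.36% to 4.09% per mouse were not whole numbers. They were rounded for the tests. The control columns are numbered 2 to 4 and stand for the group. Replicates are separate mice by their labels. No 2 libraries were copies.

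The main test was edgeR's quasi-likelihood test (edgeR 4.0.16 in R 4.3.3) after filterByExpr with a minimum count of 10 and TMM scaling, with Benjamini-Hochberg adjustment over all genes tested. Calls used adjusted p under 0.01, the study's threshold, and under 0.05. DESeq2 1.42.0, limma 3.58.1 (voom), other scalings, other filters and leaving out each mouse were alternatives. Ratios within a mouse were compared by 2-sided exact permutation over the 6 mice. The steps were tested on simulated data. Coordinates are those of GENCODE for GRCm38. All 10 genes are named, every gene of the catabolic list may be, in other lists those past 0.05 and otherwise up to 4 with the smallest p, and of the fast fibre markers Acta1, Ckm and Myh4. The genes and lists were chosen with earlier results of these data known. Of the catabolic list, 1 gene is counted but not reported here.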

Additional observations from a re-analysis of the deposited data

How the results depend on the processing

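The control columns carry numbers that cannot be matched to labelled samples. No paired analysis was possible because of this, and no replicate block was fitted. With 3 mice a group, counts of calls moved with the tool and the filter. edgeR called 3 genes at adjusted p under 0.01 and 152 under 0.05. Without a filter it called 32 and 381, with 10 counts required in every mouse 264 at 0.05. DESeq2 called 330 and 787 of the same genes (341 and 786 without a filter), with 2 of the 10 branched-chain amino acid genes at 0.05 in both. The cause was not tested.

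Scaling by library totals moved the median of all genes from 0.017 to 0.16 and, among genes at an unadjusted p under 0.05, the higher share from 46.5% to 82.1%. Signs near 0 follow from that shift. Bcat2 (0.011), Bckdhb (0.028), Dbt (0.10), Mccc2 (0.0036), Dld (0.066), Ivd (0.12), Slc25a44 (0.12), Hsd17b10 (0.019) and Hibch (0.0015) were then above 0, and relative to the median of all genes all 9 stayed negative (-0.15 to -0.037), Bcat2 at -0.14, Bckdhb at -0.13 and Dbt at -0.053. The medians of the catabolic list (0.0026), the related dehydrogenase complexes (-0.046) and the amino acid sensing list (0.064) moved as well. Pdhx (-0.33, adjusted p = 0.0788) and Esrra (-0.50, adjusted p = 0.0573) then lost their calls, at -0.49 and -0.65 relative to all genes, and Slc38a4 (0.57, adjusted p = 0.0492) gained one.

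Leaving out each mouse gave 0 to 8 genes at 0.01 and 3 to 388 at 0.05, of the 10 genes 0 to 1 at 0.05 and 2 to 5 at an unadjusted p under 0.05. Without any 1 mAktDKO mouse 3 to 5 genes passed 0.05, and 26 did without control mouse 3 and 388 without control mouse 4. The sign changed within the ranges of Bcat2 (-0.24 to 0.05), Bckdhb (-0.22 to 0.07), Dbt (-0.34 to 0.16), Slc3a2 (-0.035 to 0.05), Slc38a2 (-0.019 to 0.21), Ivd (-0.11 to 0.044), Slc25a44 (-0.09 to 0.099), Mut (-0.04 to 0.049) and the Bckdk to Bckdha ratio (-0.085 to 0.061). The medians of the 10 genes (-0.069 to 0.078), the catabolic list (-0.17 to -0.087) and the amino acid sensing list (-0.13 to 0.034) moved. So did those of the other transporters (0.14 to 0.24) and the ATF4 targets (-0.071 to 0.078). The Bckdha to Bckdhb ratio lay between -0.31 and -0.12 (exact permutation p = 0.1 to 0.4). Slc7a5 (0.39 to 0.87), Slc1a5 (0.45 to 0.80), Bckdha (-0.47 to -0.20), Bckdk (-0.40 to -0.29) and Ppm1k (0.18 to 0.47) kept their direction in all of these settings. Over all settings, 123 values of the 10 genes kept their direction and their side of 0.05, 6 moved past it (Bckdk and Slc1a5 in DESeq2, Slc7a5 and Ppm1k without 1 control mouse) and 11 changed sign.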

Other observations

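Other genes of amino acid signaling were counted in the same way. Of 11 tested genes for sensing leucine and other amino acids or for recruiting mTORC1, 7 lay lower and 4 higher in the mAktDKO mice (median log2 fold change -0.073). None of the 11 passed at adjusted p under 0.05 in edgeR. At an unadjusted p under 0.05 there were 3 higher and 2 lower, where 11.4% and 13.1% of all genes tested were, and DESeq2 called 1 at adjusted p under 0.05, lower, where it called 6.1% of all genes (3 of the 11 had no adjusted p there). Without mAktDKO mouse 2 the median of the 11 genes was 0.034. Rragd and Rragc encode GTPases that recruit mTORC1 to the lysosome. Rragd was at 307.1, 299.5 and 340.3 CPM in the mAktDKO mice and at 416.8, 369.9 and 423.5 CPM in the control mice (log2 fold change -0.35, adjusted p = 0.0759 in edgeR and 0.015 in DESeq2). Rragc was at 31.2, 34.8 and 32.4 CPM and at 26.3, 27.6 and 28.0 CPM (log2 fold change 0.27, adjusted p = 0.112). The groups did not overlap in either gene and lay in opposite directions. Of the 11 genes, 3 lay higher and 4 lower without overlap, against 14.6% and 16.6% of all genes tested. Lars, the leucyl-tRNA synthetase that also senses leucine, showed a log2 fold change of -0.27 (adjusted p = 0.113), and Sesn3, a sestrin, of 0.25 (adjusted p = 0.147).

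Slc7a5, Slc3a2 and Slc38a2 are also known targets of ATF4, the transcription factor of amino acid shortage. Of 21 tested ATF4 target genes, these 3 included, 12 lay higher and 9 lower (median log2 fold change 0.047). Atf4 itself, named after its values were seen, showed a log2 fold change of 0.044 (adjusted p = 0.855). At an unadjusted p under 0.05, 4 of the 21 were higher and 6 lower, against 11.4% and 13.1% of all genes tested. At adjusted p under 0.05 in edgeR, 1 was called higher and 1 lower, against 0.264% and 0.915% of all genes. Psat1, of serine synthesis, rose from 2.10, 2.92 and 3.4 CPM in the control mice to 5.77, 6.59 and 6.10 CPM in the mAktDKO mice (log2 fold change 1.14, adjusted p = 0.0466 in edgeR, none given by DESeq2). Cebpb, a transcription factor, fell from 84.2, 78.9 and 93.3 CPM to 58.4, 48.3 and 57.3 CPM (log2 fold change -0.64, adjusted p = 0.0394). Both calls were lost without any 1 mAktDKO mouse or without control mouse 3, with an adjusted p in edgeR of up to 0.22 for Psat1 and 0.198 for Cebpb, while the log2 fold changes stayed at 0.96 to 1.29 and -0.70 to -0.56. DESeq2 called 2 of the 21 at adjusted p under 0.05, both lower, where it called 6.1% of all genes. It gave 4 of the 21 no adjusted p. The 2 genes were Cebpb (adjusted p = 4.52e-05) and Ddit4 (log2 fold change -0.69, adjusted p = 0.0049). The groups overlapped in Ddit4, and its adjusted p in edgeR was 0.0908.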
